A study of Mus musculus with 24 samples.

Results

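The constitutive proteasome subunits were taken as every gene in the count table whose symbol is Psma, Psmb, Psmc or Psmd followed by a number. The immunoproteasome subunits Psmb8, Psmb9 and Psmb10 and the thymic subunit Psmb11 were left out. This gave 35 genes of the 55421 in the table, with 15 in the core (8 Psma and 7 Psmb) and 20 in the cap (6 Psmc and 14 Psmd). They lie on 16 chromosomes, and each is annotated as a protein-coding gene; spans of called genes are given below from Gencode M21 on GRCm38, the assembly of mm10. All 35 passed the filter on low counts and were tested among 13847 genes. Messenger RNA was sequenced from hepatocytes that had been freed from the liver by a 2-step perfusion of C57BL/6J mice, a wild-type laboratory strain. The ND + veh group (n = 8) was kept on normal diet and vehicle throughout and was of the same age scheme as the others. The HFD + veh group (n = 7) received vehicle from 4 months of age and a diet with 60% of calories from fat for 9 weeks from 18 months of age. The HFD + eRapa group (n = 9) received encapsulated rapamycin at 42 ppm from 4 months of age and the same high-fat diet from 18 months. There was no ND + eRapa group, so whether an effect of eRapa depends on the diet cannot be told. No group started or stopped eRapa at 18 months, so effects of the earlier and later eRapa months cannot be told apart. Each library is 1 numbered replicate and is called an animal below.

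The proteasome is the main protease of the cytosol and nucleus and breaks down proteins tagged with ubiquitin. Its core particle is a barrel of stacked rings, in which Psma proteins form the outer rings that gate entry and Psmb proteins form the inner rings that hold the proteolytic sites. The regulatory cap sits on the barrel: a ring of Psmc ATPases unfolds the substrate, and Psmd proteins bind ubiquitin chains, remove them and hold the assembly together. Psmd5, Psmd9 and Psmd10 are assembly chaperones of the cap base that leave before the proteasome matures. In mammalian cells the subunit genes are known to be raised together when proteasomes are inhibited, through the transcription factor Nfe2l1 acting at antioxidant response elements.

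Total counts per library, in M (mega), ranged from 17.7 to 25.9. The core took 0.0982% to 0.174% of counts and the cap 0.137% to 0.194%. Hepatocyte marker genes summed to between 56236 and 171713 CPM (counts per M reads, with library sizes scaled by TMM), so each library carried a strong hepatocyte signal. Macrophage markers, 12 of 12 tested, summed to a median of 297 CPM in ND + veh, 2960 CPM in HFD + veh and 236 CPM in HFD + eRapa, and with overlap between the groups. Of these 12 genes, 4 were called higher with high-fat diet and 10 were called lower with eRapa on it. Of 10 stellate cell markers, 3 were called higher with high-fat diet and 10 lower with eRapa on it. Of 9 endothelial markers these counts were 1 and 9. Of 3 bile duct markers tested, 3 were called higher with high-fat diet and 1 lower with eRapa on it. For 4 neutrophil markers tested these counts were 2 and 2, and for 2 lymphocyte markers 1 and 1. Of 9 hepatocyte markers, Apoa1 was called lower with high-fat diet and higher with eRapa on it. Between HFD + eRapa and ND + veh, 4 stellate and 1 endothelial marker were called lower, and 0 of the 12 macrophage markers. The bile duct marker Spp1 was called higher there (log2 fold change 2.64). In bulk RNA, a change in the share of a cell type and a change in RNA per cell cannot be told apart. HFD + veh replicate 6 had the highest immune marker score of all animals (1.62, a mean z-score of 18 marker genes), and ND + veh replicate 4 had the highest TMM factor (1.30).

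The stretches of 250 bases before the RefSeq transcription start are shown for 6 members. Psmb5 and Psmb6 are catalytic genes, which were not called in any comparison. The cap genes shown had the smallest adjusted p of the cap for HFD + eRapa against HFD + veh. They come from RefSeq on GRCm38.p6, run 5′ to 3′ on the strand of the gene, and capitals mark the antioxidant response element TGACNNNGC or the CCAAT box on either strand.
Psmb5 (chr14:54617996-54618245, minus strand): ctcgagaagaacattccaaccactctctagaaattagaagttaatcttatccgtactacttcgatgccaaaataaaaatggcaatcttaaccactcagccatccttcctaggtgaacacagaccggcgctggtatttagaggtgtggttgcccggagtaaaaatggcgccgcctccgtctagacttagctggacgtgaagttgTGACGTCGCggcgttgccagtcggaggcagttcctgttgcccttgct
Psmb6 (chr11:70525107-70525356, plus strand): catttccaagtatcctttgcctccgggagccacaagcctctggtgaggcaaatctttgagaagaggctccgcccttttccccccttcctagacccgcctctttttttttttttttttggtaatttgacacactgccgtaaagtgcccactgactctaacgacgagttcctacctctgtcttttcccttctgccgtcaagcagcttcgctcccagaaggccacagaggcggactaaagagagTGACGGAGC
Psmd4 (chr3:95042615-95042864, minus strand): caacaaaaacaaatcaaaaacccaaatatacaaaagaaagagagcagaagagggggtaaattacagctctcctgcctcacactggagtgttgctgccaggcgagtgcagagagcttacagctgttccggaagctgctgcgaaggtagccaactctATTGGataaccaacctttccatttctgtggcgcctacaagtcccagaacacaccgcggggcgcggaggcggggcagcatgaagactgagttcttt
Psmc1 (chr12:100109952-100110201, plus strand): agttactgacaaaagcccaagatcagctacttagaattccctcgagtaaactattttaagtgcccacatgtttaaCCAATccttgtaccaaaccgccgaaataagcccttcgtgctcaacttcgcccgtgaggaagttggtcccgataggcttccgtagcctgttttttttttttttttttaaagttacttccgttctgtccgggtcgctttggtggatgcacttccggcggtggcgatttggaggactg
Psmd8 (chr7:29180674-29180923, minus strand): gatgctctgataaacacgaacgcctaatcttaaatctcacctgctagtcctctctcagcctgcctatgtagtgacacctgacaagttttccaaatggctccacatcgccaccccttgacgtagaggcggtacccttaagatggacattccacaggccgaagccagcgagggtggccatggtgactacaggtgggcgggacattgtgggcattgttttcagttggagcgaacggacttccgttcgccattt
Psmd13 (chr7:140882144-140882393, plus strand): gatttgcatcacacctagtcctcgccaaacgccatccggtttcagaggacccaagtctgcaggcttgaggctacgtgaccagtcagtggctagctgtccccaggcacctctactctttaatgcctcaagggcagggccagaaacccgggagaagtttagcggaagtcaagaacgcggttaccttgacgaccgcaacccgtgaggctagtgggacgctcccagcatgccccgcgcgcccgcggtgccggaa
Psmb5 and Psmb6 each carry an antioxidant response element close to the RefSeq start. Psmd4 and Psmc1 carry a CCAAT box, and Psmd8 and Psmd13 neither in these letters. The RefSeq and Gencode M21 starts differ for some of these genes. The Psmd13 stretch lies wholly inside its Gencode span, which starts at chr7:140881968. Those of Psmb5, Psmc1 and Psmd8 overlap the start of their Gencode spans. Windows of 300 bases (250 before and 50 after the start) were found for 28 of the 35 members, 30 windows in all; Psma8, Psmb1, Psmb2, Psmb7, Psmc3, Psmd3 and Psmd7 had none. TGACNNNGC or its reverse complement was in 5 of the 30 windows (16.7%), those of Psmb5, Psmb6, Psmc6, Psmd9 and Psmd12, and in 14.2% of the 13290 windows of all genes tested. CCAAT or ATTGG was in 6 of 12 core and 5 of 18 cap windows, and in 37.7% of the windows of genes tested. GGCGGG or CCCGCC was in 7 of 12 core and 15 of 18 cap windows, and in 58.4% of the windows of genes tested. A match describes the letters of the window only.

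Levels were compared between members on the deposited FPKM values, which are per length of gene. Psmb6, which carries the caspase-like site, was highest with a median of 137 FPKM over the 24 animals (105 to 180 FPKM), followed by the outer-ring subunit Psma3 with 130 FPKM. Some neighbours at the top of the order were not separated, since Psma3 exceeded Psmb3 in 10 of 24 animals and Psmb5 exceeded Psmb7 in 8 of 24. Psmb6 exceeded Psma3 in 19 of 24 animals, and Psmb3 exceeded Psmb5 in 22 of 24. The first 10 places of the order were all held by core genes, from Psmb6 down to Psma1 with a median of 85.1 FPKM. The highest cap gene was the lid subunit Psmd8 with 80.0 FPKM, and the ATPases ran from 67.9 FPKM for Psmc1 to 38.5 FPKM for Psmc6. Most members of the mature particle thus lay within 33.3 FPKM (Psmd14) to 137 FPKM, with Psma2 below them at 22.2 FPKM, under Psmd14 in all 24 animals.
The assembly chaperones formed the low end of the order among genes of the cap. Psmd9 had a median of 12.4 FPKM, Psmd5 of 10.8 FPKM and Psmd10 of 8.0 FPKM. Psma8, the testis form of Psma7, was last at 0.738 FPKM, against 110 FPKM for Psma7. The Psmb5, Psmb6 and Psmb7 pseudogenes in the table were assigned at most 16 counts each over all 24 libraries. Reads of such copies that were assigned to the parent genes cannot be told apart.

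**Figure D1:**
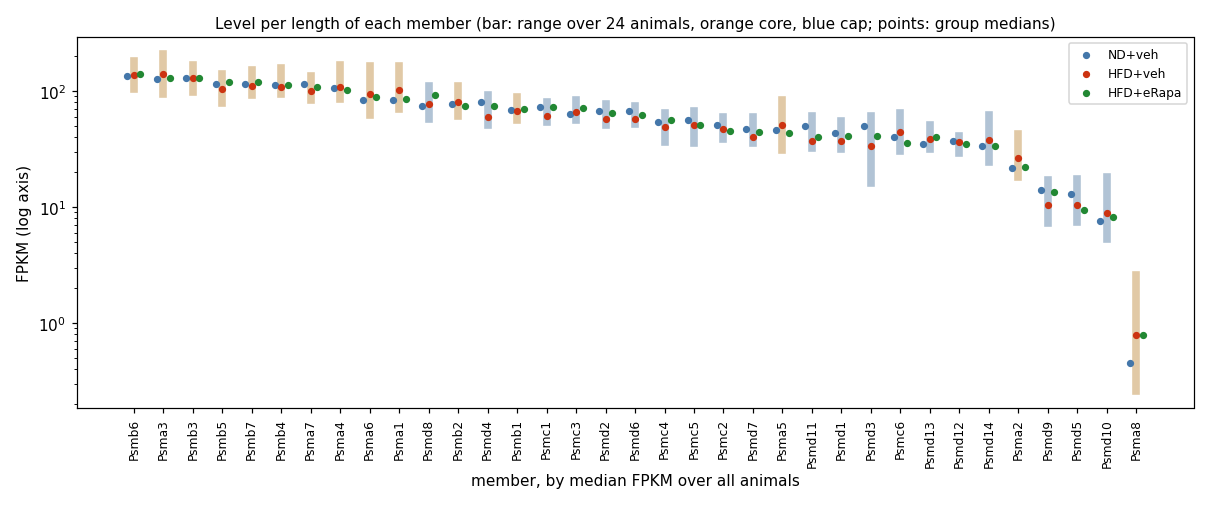
FPKM on a log axis for each of the 35 members, ordered by the median over 24 animals, with the full range as a bar (orange core, blue cap) and the median of each group as a point. Core genes hold the first 10 places, the chaperones Psmd9, Psmd5 and Psmd10 lie between 8.0 and 12.4 FPKM, and Psma8 lies apart at 0.738 FPKM.

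A gene was called where the adjusted p of the edgeR quasi-likelihood test over all genes was under 0.05. Between HFD + veh and ND + veh, 25.9% of all genes tested were called, 16% higher and 9.86% lower, and 6 of the 35 members (17.1%) were called, 2 higher and 4 lower. Between HFD + eRapa and HFD + veh, 32% of all genes were called, 10.9% higher and 21.1% lower, and 7 members (20%) were called, all 7 higher. Between HFD + eRapa and ND + veh, 13.5% of all genes were called, 6.93% higher and 6.54% lower, and 3 members (8.57%) were called, all 3 higher. With scaling by library size alone, the split over all genes moved from 1507 higher and 2925 lower to 968 and 3205 in the HFD + eRapa against HFD + veh comparison, and from 959 and 906 to 639 and 1038 in the HFD + eRapa against ND + veh comparison. The 3 comparisons share groups, so they are not independent of each other. Group values of every member overlapped in all 3 comparisons: 0 of 35 were fully separated, where 2.44%, 2.59% and 3.37% of all genes tested were.

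**Figure D2:**
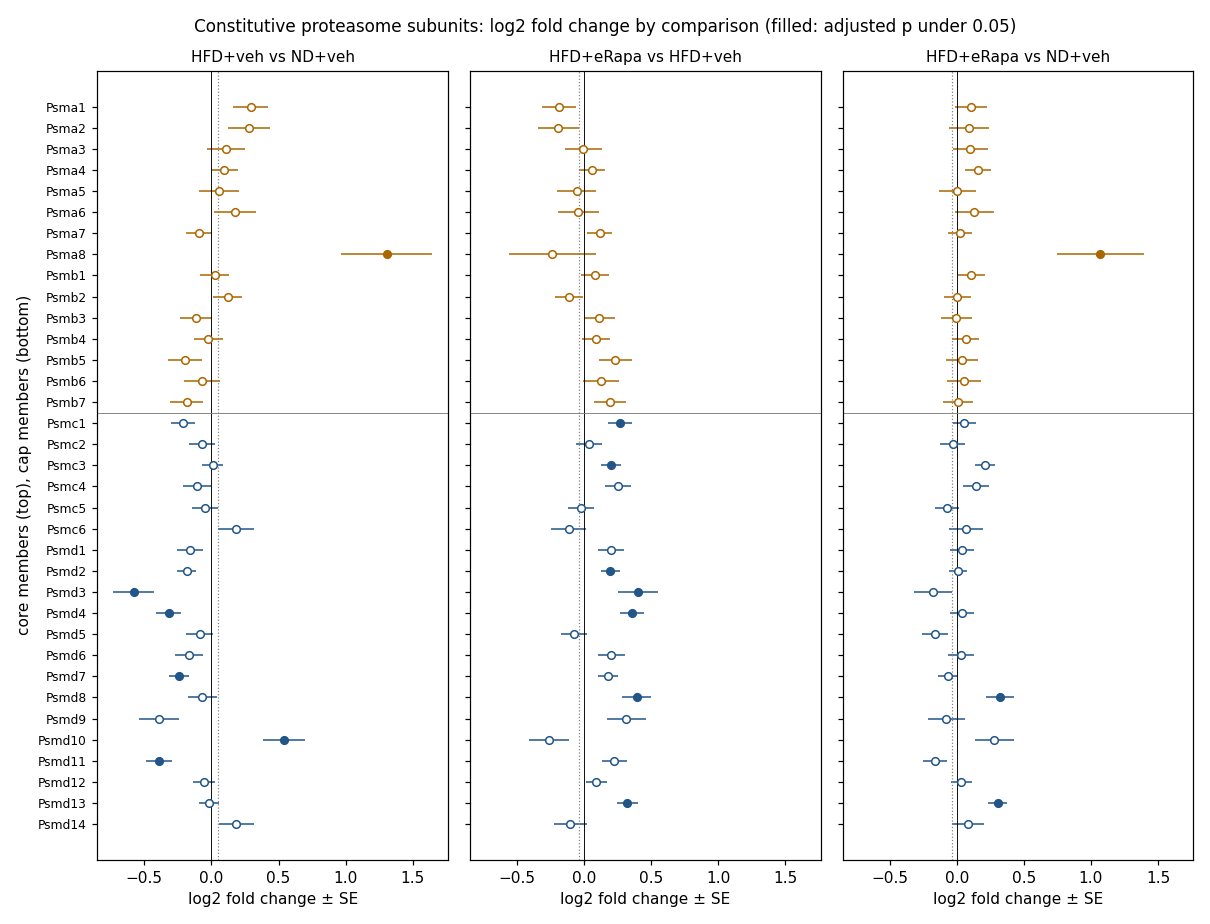
Log2 fold change with its SE (edgeR) for each member in the 3 comparisons, core above the line and cap below it. Filled points have an adjusted p under 0.05, and the dotted line is the median of all genes tested (0.05, -0.04 and -0.03). In the middle panel 7 cap genes are filled to the right of 0, and no core gene is filled in it.

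The core showed no called change in 14 of its 15 genes in any of the 3 comparisons. The median log2 fold change of all 15 was 0.06 with high-fat diet, 0.06 with eRapa on high-fat diet and 0.07 between HFD + eRapa and ND + veh, beside 0.05, -0.04 and -0.03 over all genes tested. With scaling by library size alone the last 2 core medians were -0.04 and -0.02, while those of all genes were -0.13 and -0.12. Leaving out Psma8, the fold changes ran from -0.20 to 0.29 with high-fat diet, from -0.19 to 0.23 with eRapa on high-fat diet, and from -0.0025 to 0.16 between HFD + eRapa and ND + veh, with SEs of 0.09 to 0.16. Intervals of 1.96 SE either side reached at most -0.49 and 0.59 on the log2 scale over these 14 genes and 3 comparisons.

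The proteolytic subunits were near each other in all groups. Psmb5 (chr14:54614119-54618022), the chymotrypsin-like subunit and target of bortezomib, was at 70.9 to 98.5 CPM (median 76.6) in ND + veh, 49.7 to 89.4 CPM (median 70.7) in HFD + veh and 58.6 to 105 CPM (median 81.5) in HFD + eRapa. Of the 7 HFD + veh animals 4 lay below every ND + veh animal, and 3 of 9 HFD + eRapa animals lay above every HFD + veh animal. Its log2 fold change was -0.20 (SE 0.13, adjusted p = 0.262) with high-fat diet and 0.23 (SE 0.12, adjusted p = 0.159) with eRapa on high-fat diet, the latter being the smallest adjusted p of the core in that comparison. Against ND + veh, HFD + eRapa differed by 0.04 (SE 0.12, adjusted p = 0.893). The exons of Psmb5 share 109 bases (12.1% of their length) with the microRNA gene Mir686 on the same strand.
Psmb7, the trypsin-like subunit, had group medians of 107 CPM in ND + veh, 97.9 CPM in HFD + veh and 108 CPM in HFD + eRapa, within ranges of 84.6 to 145, 85.3 to 124 and 83.8 to 143 CPM. Its fold changes were -0.18 (SE 0.12, adjusted p = 0.268), 0.19 (SE 0.12, adjusted p = 0.221) and 0.01 (SE 0.11, adjusted p = 0.979) in the order above. The exons of Psmb7 share 405 bases (11.8% of their length) with Nek6 on the opposite strand. Psmb6 had group medians of 79.1, 77.3 and 86.8 CPM, within ranges of 60.8 to 110 CPM in ND + veh, 64.3 to 107 CPM in HFD + veh and 58.3 to 114 CPM in HFD + eRapa. Its fold changes were -0.07 (SE 0.14, adjusted p = 0.733), 0.12 (SE 0.13, adjusted p = 0.501) and 0.05 (SE 0.13, adjusted p = 0.846).
Their inducible counterparts in the immunoproteasome were called in both comparisons with HFD + veh. Psmb8, which takes the place of Psmb5, had medians of 28.6 FPKM in ND + veh, 75.8 FPKM in HFD + veh and 25.1 FPKM in HFD + eRapa, with log2 fold changes of 1.09 (adjusted p = 7.50e-04) with high-fat diet and -1.29 (adjusted p = 8.62e-05) with eRapa on it. The ratio of Psmb8 to Psmb5 FPKM within an animal was 0.191 to 0.498 in ND + veh, 0.404 to 1.15 in HFD + veh and 0.119 to 0.303 in HFD + eRapa. Macrophage marker sums also had their highest median in HFD + veh (2960 CPM, beside 297 CPM in ND + veh and 236 CPM in HFD + eRapa). The part of other cell types in the Psmb8 levels was not tested.

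**Figure D3:**
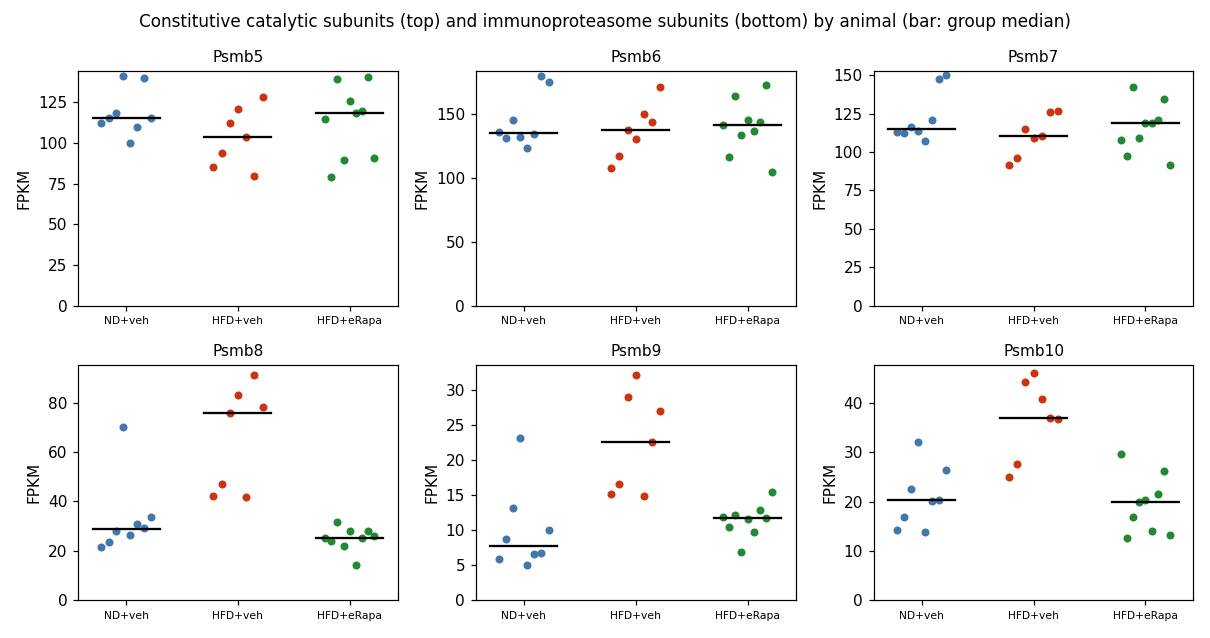
FPKM in each animal for Psmb5, Psmb6 and Psmb7 (top) and for the immunoproteasome subunits Psmb8, Psmb9 and Psmb10 (bottom), with the group median as a bar. The 3 groups overlap throughout in the top row. Psmb8 has a median of 75.8 FPKM in HFD + veh against 28.6 and 25.1 FPKM in the other groups. ND + veh replicate 4 lies within the HFD + veh range of Psmb8 (70.4 FPKM), Psmb9 (23.2 FPKM) and Psmb10 (32.1 FPKM).

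Among the other core genes the outer and inner rings leaned to different sides with high-fat diet, without a call. Of the 7 Psma genes other than Psma8, 6 had a log2 fold change above 0 (median 0.11), and of the 7 Psmb genes 2 did (median -0.07). Psma1 and Psma2 had the largest values, 0.29 (SE 0.13, adjusted p = 0.0917) and 0.28 (SE 0.16, adjusted p = 0.186). Psma1 was at 78.9 to 111 CPM (median 86.5) in ND + veh, 76.0 to 171 CPM (median 111) in HFD + veh and 85.1 to 117 CPM (median 94.7) in HFD + eRapa. In HFD + veh 4 of 7 animals exceeded all ND + veh animals and 1 lay below them all. HFD + veh replicate 6 was the highest of its group for Psma1 to Psma6, at 171, 126, 200, 140, 86.8 and 136 CPM. Replicate 7 was next, at 120, 83.5, 153, 121, 60.9 and 88.8 CPM. The lean of the Psma genes without replicate 6 is not given here. Without HFD + veh replicate 2, Psma1 was called, and the core then held 2 called genes in place of 1. The calls over all genes in that fit are not given here.
With eRapa on high-fat diet, Psma1 and Psma2 stood at -0.19 (SE 0.12, adjusted p = 0.260) and -0.19 (SE 0.15, adjusted p = 0.353), with the smallest adjusted p of the core after Psmb5 and Psmb7. Psma2 had group medians of 60.2, 72.9 and 63.3 CPM, within 46.7 to 87.3 CPM in ND + veh, 49.7 to 126 CPM in HFD + veh and 51.0 to 86.6 CPM in HFD + eRapa. Between HFD + eRapa and ND + veh, the smallest adjusted p values of the core after Psma8 were those of Psma4 (0.16, SE 0.10, adjusted p = 0.328), Psmb1 (0.10, SE 0.10, adjusted p = 0.575) and Psma6 (0.13, SE 0.15, adjusted p = 0.634). Psma4 had group medians of 97.0, 103 and 113 CPM, Psmb1 of 117, 120 and 132 CPM, and Psma6 of 73.5, 84.9 and 82.3 CPM, in the order ND + veh, HFD + veh, HFD + eRapa. The remaining core genes, Psma3, Psma5, Psma7, Psmb2, Psmb3 and Psmb4, had fold changes between -0.12 and 0.12 in all 3 comparisons.

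Psma8 (chr18:14706151-14762301) was the only called gene of the core. It was read 6 to 28 times per library in ND + veh, 13 to 63 times in HFD + veh and 14 to 39 times in HFD + eRapa. In CPM this was 0.341 to 1.03 (median 0.567), 0.678 to 2.81 (median 1.02) and 0.790 to 1.88 (median 1.19). Every animal of both high-fat groups lay above the ND + veh median, and 3 of 7 HFD + veh and 6 of 9 HFD + eRapa animals lay above the whole ND + veh range. The log2 fold change was 1.31 (SE 0.34, adjusted p = 0.00916) with high-fat diet and 1.07 (SE 0.32, adjusted p = 0.0284) when HFD + eRapa was set against ND + veh, and -0.24 (SE 0.32, adjusted p = 0.606) between them. The first call did not hold once the immune marker score or that of other liver cells entered the fit, nor on FPKM (adjusted p up to 0.221). The second was lost without ND + veh replicate 1, 2 or 6 or HFD + eRapa replicate 4 or 5 (adjusted p = 0.0534 to 0.0602).

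With high-fat diet the log2 fold change was below 0 in 16 of the 20 cap genes, and 4 of these were called. The 4 were Psmd3, Psmd7 and Psmd11 of the lid and the ubiquitin receptor Psmd4 of the base, and 1 gene, the chaperone Psmd10, was called higher. That is 20% called lower, beside 9.86% of all genes, and 5% called higher, beside 16%. The median log2 fold change of the cap was -0.10, beside 0.05 over all genes tested. Whether the cap and the core differ in their response was not tested.

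Psmd3 (chr11:98682554-98695979), a scaffold subunit of the lid, fell the most, by 0.58 on the log2 scale (SE 0.15, adjusted p = 0.00968). It was at 80.5 to 119 CPM (median 106) in ND + veh and 32.9 to 82.3 CPM (median 76.7) in HFD + veh. The groups touched only through ND + veh replicate 8, which had the 80.5 CPM, and HFD + veh replicates 1 and 2. HFD + veh replicate 6, with 32.9 CPM, lay far under the 69.4 to 82.3 CPM of the other 6.
Psmd11 (chr11:80428615-80473248), a lid subunit known to stabilise the joint of core and cap, fell by 0.39 (SE 0.10, adjusted p = 0.00651). It was at 99.6 to 129 CPM (median 121) in ND + veh and 65.7 to 117 CPM (median 91.2) in HFD + veh, and 6 of 7 HFD + veh animals lay below all ND + veh animals. The call held in all 24 fits that left out 1 library and in all 14 other alternatives.
Psmd4 (chr3:95032694-95042614) fell by 0.32 (SE 0.09, adjusted p = 0.0179), from 81.9 to 101 CPM (median 95.0) in ND + veh to 60.3 to 104 CPM (median 71.3) in HFD + veh. In HFD + veh 5 of 7 animals were below the ND + veh range and 1 was above it.
Psmd7 (chr8:107580381-107588464), the lid partner of the deubiquitinase Psmd14, fell by 0.24 (SE 0.08, adjusted p = 0.0218), with 64.2 to 82.1 CPM (median 72.1) in ND + veh and 54.3 to 78.4 CPM (median 59.5) in HFD + veh. In HFD + veh 6 of 7 animals lay below the ND + veh range, and replicate 7 lay far above the others of its group at 78.4 CPM.
Psmd14 itself was at 0.19 (SE 0.13, adjusted p = 0.287), so the pair did not share a sign.

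The chaperones of the base did not move alike with high-fat diet. Psmd10 (chrX:140948429-140956728), also known as gankyrin, was higher by 0.54 (SE 0.15, adjusted p = 0.0148), against the direction of the other called cap genes. It was at 7.65 to 11.4 CPM (median 9.72) in ND + veh, 9.81 to 23.8 CPM (median 12.7) in HFD + veh and 9.27 to 14.8 CPM (median 11.3) in HFD + eRapa. In HFD + veh 4 of 7 animals exceeded all ND + veh animals, and replicate 6 held the 23.8 CPM. Without that animal the log2 fold change was 0.32 (adjusted p = 0.0657).
Psmd9 was at 20.7 to 39.2 CPM (median 33.3) in ND + veh, 15.1 to 30.9 CPM (median 27.8) in HFD + veh and 24.3 to 37.8 CPM (median 29.0) in HFD + eRapa. All 7 HFD + veh animals lay under the ND + veh median. The fold changes, -0.39 (SE 0.15, adjusted p = 0.0553) and 0.31 with eRapa (SE 0.15, adjusted p = 0.103), did not pass the test. Psmd9 shares 25.5% of its exon bases with the antisense lincRNA Gm26745, and whether the counting used strand is not given in the sources used here.
Psmd5 had group medians of 41.5, 39.4 and 37.5 CPM and fold changes of -0.09 (SE 0.10, adjusted p = 0.548), -0.08 (SE 0.10, adjusted p = 0.591) and -0.16 (SE 0.10, adjusted p = 0.298). Its CPM ranges were 37.4 to 54.0 in ND + veh, 33.1 to 51.5 in HFD + veh and 30.2 to 45.4 in HFD + eRapa.

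The markers of other cell types also differed between these groups. With the mean z-score of 18 immune marker genes as a covariate, Psmd11 was still called (log2 fold change -0.38), and Psmd3 (-0.41, adjusted p = 0.0933), Psmd4 (-0.25, adjusted p = 0.142), Psmd7 (-0.19, adjusted p = 0.181) and Psmd10 (0.35, adjusted p = 0.201) kept their sign and were not. With the score of 22 endothelial, stellate and bile duct genes Psmd11 (-0.37) and Psmd3 (-0.47) were called, and Psmd4, Psmd7 and Psmd10 stood at -0.26, -0.20 and 0.39. HFD + veh replicate 2, with the lowest summed cap level of all animals (1391 CPM), had an immune marker score of -0.447. Replicates 3, 4 and 5 of that group, with scores of 1.46, 1.25 and 1.34, had cap sums of 1445, 1449 and 1449 CPM. Replicates 1, 7 and 6, with scores of -0.493, 0.654 and 1.62, had 1556, 1815 and 1554 CPM. Without ND + veh replicate 4, 8 cap genes were called in place of 5, with 1 higher and 7 lower. The calls over all genes in these fits are not given here. The part of other cell types in these differences was not tested.

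With eRapa on high-fat diet, 15 of the 20 cap genes had a log2 fold change above 0 and 7 were called, all higher, which is 35% of the cap beside 10.9% of all genes called higher. None was called lower, where 21.1% of all genes were. The 7 were the ATPases Psmc1 and Psmc3, the base scaffold Psmd2, the receptor Psmd4, and the lid subunits Psmd3, Psmd8 and Psmd13. The median of the cap was 0.20, beside -0.04 over all genes. With scaling by library size alone the median was 0.11 beside -0.13 over all genes, and 2 genes, Psmd4 and Psmd13, were called.

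Psmd13 (chr7:140881968-140898643), a lid subunit, rose by 0.32 (SE 0.07, adjusted p = 0.00300), from 54.9 to 71.5 CPM (median 59.4) in HFD + veh to 66.0 to 83.9 CPM (median 79.6) in HFD + eRapa. In HFD + eRapa 7 of 9 animals exceeded every HFD + veh animal. Its exons share 342 bases (10.1% of their length) with Sirt3 on the opposite strand.
Psmd4 rose by 0.36 (SE 0.09, adjusted p = 0.00574), to 83.5 to 107 CPM (median 96.7) in HFD + eRapa from the HFD + veh values above. All 9 animals lay above the HFD + veh median, and the overlap came from the 104 CPM of HFD + veh replicate 7.
Psmd8 (chr7:29174188-29180701), the lid subunit that joins last, rose by 0.39 (SE 0.11, adjusted p = 0.00759), from 69.7 to 107 CPM (median 96.9) in HFD + veh to 92.0 to 148 CPM (median 123) in HFD + eRapa. In HFD + eRapa 8 of 9 animals exceeded every HFD + veh animal.
Psmc1 (chr12:100110154-100123405), an ATPase with a gate-opening tail, rose by 0.27 (SE 0.09, adjusted p = 0.0216), from 82.9 to 110 CPM (median 86.1) to 92.2 to 125 CPM (median 109). All 9 HFD + eRapa animals were above the HFD + veh median.
The other 3 calls lay closer to the threshold. Psmd2 (chr16:20651652-20663414) rose by 0.19 (SE 0.07, adjusted p = 0.0355), with 156 to 197 CPM (median 175) in HFD + veh and 191 to 214 CPM (median 198) in HFD + eRapa. Psmd3 rose by 0.40 (SE 0.15, adjusted p = 0.0411), to 59.3 to 109 CPM (median 99.9), and 7 of 9 HFD + eRapa animals exceeded all HFD + veh animals while 2 lay below their median. Psmc3 (chr2:91054009-91066369) rose by 0.20 (SE 0.08, adjusted p = 0.0464), with 80.9 to 111 CPM (median 87.2) in HFD + veh and 90.1 to 118 CPM (median 106) in HFD + eRapa. Each of the 3 calls held in 4 of 14 other alternatives. The Psmd2 call held in 17 of 24 fits without 1 library and ended without HFD + veh replicate 3, 4 or 5 or HFD + eRapa replicate 3, 4, 5 or 6. The Psmd3 call held in 15 of 24 and ended without HFD + veh replicate 3 or 5 or HFD + eRapa replicate 1, 3, 5, 6, 7, 8 or 9. The Psmc3 call held in only 8 of 24, those without ND + veh replicate 1, 4, 7 or 8, HFD + veh replicate 1 or 7, or HFD + eRapa replicate 1 or 9. Both Psmd2 and Psmd3 were also not called with the replicate block.

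**Figure D4:**
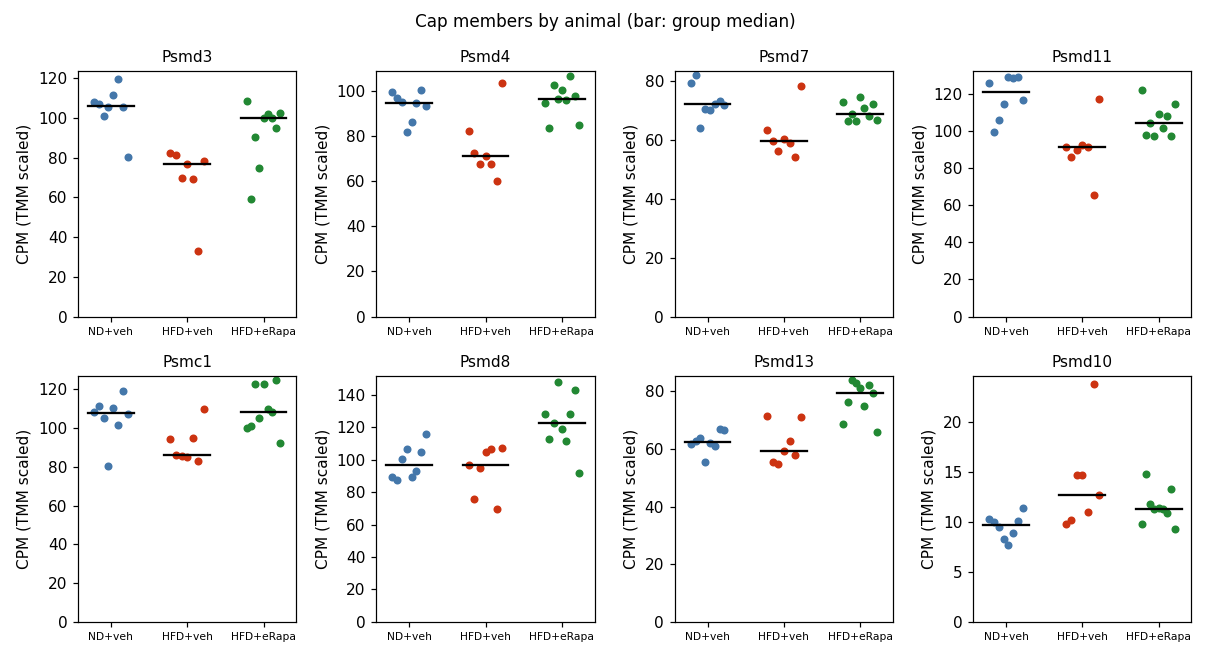
CPM (scaled by TMM, axis from 0) in each animal for the 8 cap genes Psmd3, Psmd4, Psmd7, Psmd11, Psmc1, Psmd8, Psmd13 and Psmd10, with the group median as a bar. Psmd3, Psmd4, Psmd7 and Psmd11 have their lowest median in HFD + veh, Psmd8 and Psmd13 have their highest in HFD + eRapa, and in every panel some animals of different groups overlap.

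Cap genes that were not called in this comparison included 8 with values above 0 and 5 below. Psmc4 (0.25, adjusted p = 0.0554), Psmd7 (0.18, adjusted p = 0.0667), Psmd11 (0.22, adjusted p = 0.0688), Psmd1 (0.20, adjusted p = 0.108) and Psmd6 (0.20, adjusted p = 0.130) were the closest of these to the threshold beside Psmd9. The 5 below 0 were Psmc5 (-0.03), Psmc6 (-0.11), Psmd5 (-0.08), Psmd10 (-0.26, SE 0.15, adjusted p = 0.182) and Psmd14 (-0.10). Psmc2 (0.04) and Psmd12 (0.09) completed the cap.
Psmd3 and Psmd4 were called in both comparisons that involve HFD + veh, which share those 7 animals, with values of -0.58 and 0.40 for Psmd3 and -0.32 and 0.36 for Psmd4. When the immune marker score entered the fit 2 of the 7 calls were kept, Psmd8 (0.48) and Psmd13 (0.31), and the log2 fold changes of the others were 0.28 for Psmd4, 0.20 for Psmc3, 0.20 for Psmc1, 0.19 for Psmd3 and 0.13 for Psmd2. With the score of other liver cells Psmd8 was kept (0.50), and the others were at 0.29 for Psmd13, 0.25 for Psmd4, 0.19 for Psmc3, 0.17 for Psmc1, 0.18 for Psmd3 and 0.11 for Psmd2. On log2(FPKM + 1) with limma 1 was kept, Psmd4 (log2 fold change 0.29). Leaving out any of HFD + veh replicates 3 and 5 or HFD + eRapa replicates 3, 5 and 6 left 4 calls. For these fits too the calls over all genes are not given.

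Between HFD + eRapa and ND + veh the cap was close to the level of all genes, with a median of 0.04 beside -0.03, or -0.04 beside -0.12 with scaling by library size alone. Psmd13 and Psmd8 were called, both higher, which is 10% of the cap beside 6.93% of all genes called higher. Psmd13 was higher by 0.30 (SE 0.07, adjusted p = 0.00522). Its ND + veh values of 55.5 to 66.9 CPM (median 62.5) were exceeded by 8 of the 9 HFD + eRapa animals. The ND + veh and HFD + veh levels of Psmd13 differed by -0.02 (SE 0.08, adjusted p = 0.878). Psmd8 was higher by 0.32 (SE 0.10, adjusted p = 0.0359), with 87.4 to 116 CPM (median 96.7) in ND + veh.
The Psmd13 call held in all 24 fits without 1 library and in all 14 other alternatives, whereas the Psmd8 call was lost in 11 of 24 (adjusted p = 0.0515 to 0.0864). The libraries whose absence ended it were ND + veh replicates 1, 2, 3, 5 and 6, HFD + veh replicate 3 and HFD + eRapa replicates 1, 3, 4, 7 and 8. Psmc3 (0.21, SE 0.07, adjusted p = 0.0603) and Psmd10 (0.28, SE 0.15, adjusted p = 0.234) had the next smallest adjusted p. Psmc3 was at 80.1 to 100.4 CPM (median 91.1) in ND + veh, and 7 of 9 HFD + eRapa animals lay above that range. Its exons share 215 bases with Slc39a13 on the opposite strand.

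The spread between animals of a group depended on the scaling. On log2 CPM with TMM factors the core genes without Psma8 had a median within-group SD of 0.21 in ND + veh, 0.26 in HFD + veh and 0.19 in HFD + eRapa, against 0.15, 0.22 and 0.14 for the cap. On log2 shares of total counts, without the TMM factor, the core SDs were 0.16, 0.27 and 0.14 and the cap SDs 0.16, 0.21 and 0.14.
The same animals often held the extremes of their group on CPM. ND + veh replicate 4 was the lowest of its group for 12 of the 14 core genes and 12 of the 20 cap genes, HFD + veh replicate 2 for 13 and 5, and HFD + eRapa replicate 9 for 13 and 10. The highest core values fell to ND + veh replicates 7 and 8 (5 and 9 genes), HFD + veh replicates 6 and 7 (9 and 5 genes), and HFD + eRapa replicates 8 and 2 (7 and 5 genes), and HFD + veh replicate 7 was highest for 11 cap genes. On shares of total counts the place of ND + veh replicate 4, the library with the highest TMM factor, turned: it was lowest for 0 core genes and 1 cap gene and highest for 2 and 11. HFD + veh replicate 2 was then lowest for 7 core genes and HFD + eRapa replicate 9 for 9.
Summed over the 15 core genes, the level ran from 987 to 1495 CPM in ND + veh, 932 to 1617 CPM in HFD + veh and 996 to 1491 CPM in HFD + eRapa, with medians of 1170, 1205 and 1237 CPM. Summed over the 20 cap genes it ran from 1499 to 1790 CPM, 1391 to 1815 CPM and 1586 to 1827 CPM, with medians of 1699, 1449 and 1729 CPM. The low cap median in HFD + veh came from 6 of its animals at or below 1556 CPM, while replicate 7 had the 1815 CPM. As a share of total counts the cap medians were 0.170%, 0.163% and 0.168%.
The share of counts from ribosomal protein genes varied beside the core. HFD + veh replicate 6 had the highest core sum and the highest ribosomal protein share of all animals (1.70% of counts), and HFD + veh replicate 2 the lowest of both (0.699%). Within ND + veh the highest core sum and the highest ribosomal protein share were both in replicate 8 (1.53%), but the lowest core sum was in replicate 4 (1.20%) and the lowest ribosomal protein share in replicate 2 (1.01%). Within HFD + eRapa the highest core sum and ribosomal protein share were in replicate 8 (1.33%) and the lowest of both in replicate 9 (0.823%). These core sums are scaled by TMM, while the ribosomal protein shares are of unscaled counts. As a share of counts the core was lowest within ND + veh in replicate 5 (0.109%), and replicate 4 had 0.128%. On that scale the highest core value within HFD + eRapa was in replicate 3 (0.1342%, beside 0.1338% in replicate 8). The ratio of core to cap counts was 1.04 in HFD + veh replicate 6 and 0.628 to 0.864 in the other 23 animals. The part of the library makeup in these differences was not tested.

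**Figure D5:**
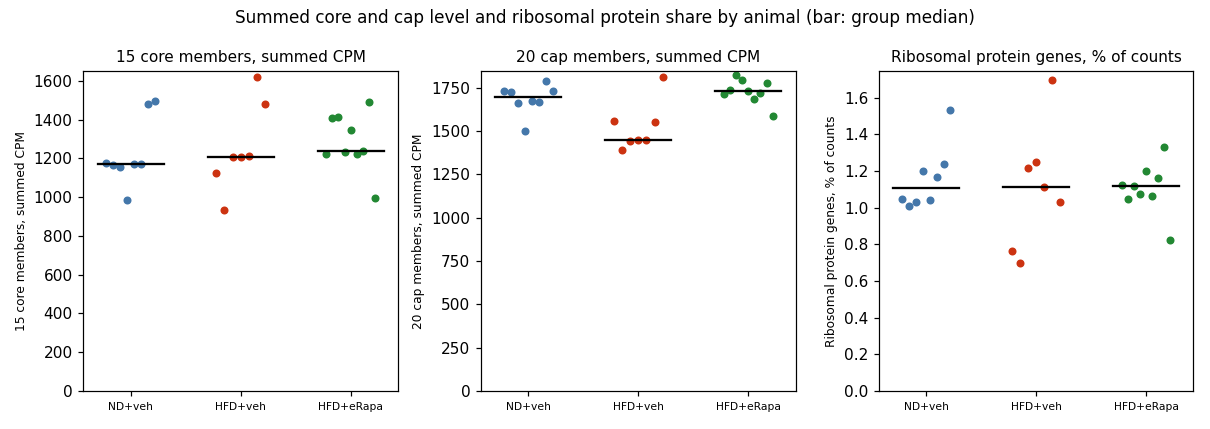
Summed CPM of the 15 core genes, summed CPM of the 20 cap genes, and ribosomal protein genes as a percent of counts, in each animal with the group median as a bar. The core sums of the 3 groups overlap widely (medians 1170, 1205 and 1237 CPM), and the cap median is lowest in HFD + veh (1449 CPM).

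Genes that work with the proteasome were tallied from lists of 41 genes outside the member set, of which 40 were tested. The lists were chosen with earlier results of these data known, so the shares below only describe them. With high-fat diet 7 were called higher (17.5%, beside 16% of all genes tested) and 9 lower (22.5%, beside 9.86%). With eRapa on high-fat diet 11 were higher (27.5%, beside 10.9%) and 5 lower (12.5%, beside 21.1%). Between HFD + eRapa and ND + veh 3 were higher (7.5%, beside 6.93%) and 2 lower (5%, beside 6.54%).
The immunoproteasome subunits were all 3 called higher with high-fat diet and all 3 called lower with eRapa on it. Psmb9 had log2 fold changes of 1.22 and -0.88 and Psmb10 of 0.64 and -0.80, and none of the 3 was called between HFD + eRapa and ND + veh. The part of other cell types in these calls was not tested.
Of the alternative activators, Psme2, a subunit of the interferon-inducible ring activator, was higher by 0.45 with high-fat diet (adjusted p = 0.0216) and fell by 0.44 with eRapa on it (adjusted p = 0.0144). Its partner Psme1 had values of 0.21 and -0.25 and was not called. Psme3, the nuclear ring activator, rose by 0.29 with eRapa on high-fat diet (adjusted p = 0.0133), and Psme4 was not called in any comparison (-0.23, 0.19 and -0.04).
Adrm1, a ubiquitin receptor of the cap outside the symbol pattern, had the pattern of Psmd4. It fell by 0.78 with high-fat diet (SE 0.18, adjusted p = 0.00511) and rose by 0.48 with eRapa on it (SE 0.18, adjusted p = 0.0409). Sem1 and Uchl5, the other cap genes outside the pattern, were not called.

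Of the 5 chaperones of core assembly, Pomp, the maturation factor of the core, was higher in both high-fat groups than in ND + veh (0.46, adjusted p = 0.0147, and 0.39, adjusted p = 0.0345). Psmg2 was as well (0.53, adjusted p = 0.00442, and 0.52, adjusted p = 0.00310). Psmg1, Psmg3 and Psmg4 were not called. Of 6 proteasome-bound regulators tested, 1 was called, the thioredoxin-like Txnl1, which fell by 0.27 with high-fat diet (adjusted p = 0.0389).
In the route that controls subunit transcription, Nfe2l1 rose by 0.34 with eRapa on high-fat diet (adjusted p = 0.0346) and stood at -0.22 with high-fat diet (adjusted p = 0.185). Ddi2, the protease that cuts Nfe2l1 into its active form, fell by 0.39 (adjusted p = 0.0379) with high-fat diet and rose by 0.65 (adjusted p = 0.00133) with eRapa on it. The subunits of the CCAAT-binding factor differed from each other: Nfya was higher by 0.73 with high-fat diet and fell by 0.67 with eRapa on it, Nfyb fell by 0.61 and rose by 0.24, and Nfyc was not called. Nfyb was also lower in HFD + eRapa than in ND + veh, by 0.36 (-0.36, adjusted p = 8.16e-04). Ngly1, which removes sugars from Nfe2l1, and Nfe2l2 were not called.
The list of ubiquitin shuttles, which bring tagged proteins to the cap, and the segregase Vcp had 5 of 8 genes lower with high-fat diet and 5 of 8 higher with eRapa on it. Vcp, which pulls tagged proteins out of complexes, fell by 0.27 and rose by 0.21, its cofactor Nploc4 fell by 0.47 and rose by 0.32, and Ubqln1 fell by 0.45 and rose by 0.48. Rad23b rose by 0.60 with eRapa on high-fat diet and was also higher than in ND + veh (0.32, adjusted p = 0.0384). Ubqln2 and Ubqln4 fell by 0.42 and 0.45 with high-fat diet, and Ubqln2 remained lower than ND + veh in HFD + eRapa (-0.60, adjusted p = 0.00273). Ufd1 was not called.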

How the data were processed

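The authors aligned reads to mm10 (Gencode vM23) with STAR, handled alignments with SAMtools 1.1.0, counted reads per gene with HTSeq 0.11.2 and computed FPKM with Cufflinks. The deposited counts are whole numbers per gene, and the deposited FPKM values are per length and depth. Groups came from the sample labels, which give all libraries the same batch. The labels do not tie replicates to separate animals, so p-values measure the spread between libraries. Counts were filtered by filterByExpr, scaled by TMM and tested with edgeR 4.0.16 (R 4.3.3) quasi-likelihood in 1 fit of 24 libraries, with Benjamini-Hochberg adjustment over 13847 genes. Differences are log2 fold changes with SE, and CPM values use TMM-scaled library sizes. The script was tested on simulated data. Some genes of the lists are counted but not reported singly here. DESeq2 1.42.0, limma 3.58.1 and other alternatives were also run. Named genes were Psmb5, Psmb6, Psmb7, the 3 chaperones and, per comparison, the 4 core and 4 cap genes of smallest adjusted p; all called members were added. The members and lists were chosen with earlier results of these data known. Promoter windows are from RefSeq. Closest library pairs differed beyond sampling noise. Another build of gene models, Gencode M21, gave spans and overlaps, and its versioned gene identifiers equalled those of all 35 members. CPM differences between genes are not per length.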

Additional observations from a re-analysis of the deposited data

Results flagged for a closer look

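Each member and summed measure was checked in each group for a library whose gap to its nearest neighbour was large against the range of the group (Dixon's test). Of 114 sets of values 10 had such a library, where chance alone gives about 5.7. In log2 CPM, Psmd3 was lowest in HFD + veh replicate 6 (5.04, others 6.12 to 6.36) and in ND + veh replicate 8 (6.33, others 6.66 to 6.90). ND + veh replicate 4 was lowest for Psmc1 (6.34, others 6.67 to 6.90), Psmd9 (4.38, others 4.91 to 5.30) and Psmd12 (5.77, others 6.03 to 6.22). That library has the highest TMM factor (1.30); on deposited FPKM 2 libraries of its group were lower for Psmc1, 2 for Psmd12 and 0 for Psmd9, and its cap share of counts (0.194%) was the highest of all 24. HFD + eRapa replicate 9 was lowest for Psmb2 (5.43, others 5.60 to 5.76) and HFD + eRapa replicate 2 for Psmc4 (6.02, others 6.25 to 6.37). The highest values that stood apart were Psmb5 in ND + veh replicate 7 (6.62, others 6.15 to 6.33), Psmd5 in ND + veh replicate 8 (5.76, others 5.23 to 5.46) and Psmd7 in HFD + veh replicate 7 (6.29, others 5.77 to 5.99).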

How the results depend on the processing

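The calls rest on small differences, and most counts moved by more than 1.5 times under some alternative; no call of a member turned its direction under any alternative run, and the cause of each loss was not tested. Except for scaling by library size, the calls over all genes in each alternative are not given here. Whether the counts of members moved with those of all genes therefore cannot be told from them. For HFD + veh against ND + veh, the 5 cap calls became 1 with the immune marker score and 2 with the score of other liver cells as covariate, where the log2 fold changes of Psmd4 (-0.25 and -0.26, against -0.32) and Psmd7 (-0.19 and -0.20, against -0.24) moved less than the calls, and 5 to 8 when 1 library was left out. The 1 core call, Psma8, became 0 with both covariates, with a minimum of 10 counts in every library (which removes it) and with limma on log2(FPKM + 1), log2(FPKM + 0.1) or unfiltered log2(FPKM + 1), and was 1 to 2 when 1 library was left out. For HFD + eRapa against HFD + veh, the 7 cap calls became 2 with library size only, 4 with at least 10 counts in every library, 4 with only the groups compared, 2 and 1 with the covariates (Psmc3 then at 0.20 and 0.19, against 0.20), 1 in each of the 3 FPKM fits, and 4 to 10 without 1 library. DESeq2 called 10, limma voom 8. The core had 0 calls in this comparison in all of these fits, DESeq2 and limma voom included, and 0 at an unadjusted p under 0.05 in edgeR. For HFD + eRapa against ND + veh, the 2 cap calls became 1 with library size only or without the filter, 4 on log2(FPKM + 1) and on log2(FPKM + 0.1) with 2 of these lower (Psmd5 and Psmd11), and 1 to 3 without 1 library. The 1 core call became 0 with library size only, without the filter, with the count minimum and in the 3 FPKM fits, and was 0 to 1 without 1 library. Leaving out ND + veh replicate 4 and HFD + veh replicate 6 together gave 7 cap calls for each of the comparisons with HFD + veh. The deviations of same-numbered libraries had mean correlations of 0.32, -0.24 and -0.20, with 5 of 7, 2 of 7 and 2 of 8 pairs above 0.1. Differently numbered pairs were not compared, so whether the numbers pair libraries cannot be told. With the replicate block the cap calls were 5, 5 and 3 and the core calls 1, 0 and 1.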
